A study of Mus musculus with 2 samples.

Results

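Fatty acid oxidation was described here through 36 genes out of the 31053 counted in each library, taken by name, in single cells of mouse kidney. They fall into 9 roles: the regulators Ppara and Ppargc1a, the carnitine shuttle, the mitochondrial acyl-CoA dehydrogenases, the trifunctional protein and the steps after it, the electron transfer flavoprotein, the enzymes for unsaturated fatty acids, the peroxisomal proteins, the acyl-CoA synthetases and the acyl-CoA thioesterases. All 36 were found in both count tables. The study is a series on kidney disease and muscle wasting, and the comparison is between a wild type (WT, labelled control) mouse kidney and a Kif3aΔTub (genotype KO, labelled disease) kidney, both from animals 5 weeks of age. Each genotype is 1 library of whole kidney cells, freed with a cold active protease after red cell lysis and depleted of dead cells. Kif3a encodes a motor subunit of kinesin-2, which primary cilia need, and ΔTub is read here as its deletion in tubule cells. The labels do not name the Cre driver, the strain or how many animals went into a library. With 1 library per genotype no test was possible, so every interval below covers counting error only and every difference is one between these libraries.

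Fatty acids are activated to acyl-CoA by synthetases, carried across the mitochondrial membranes as carnitine esters, and shortened in a cycle of dehydrogenation, hydration, a further dehydrogenation and thiolysis that yields acetyl-CoA. The electrons of the first step pass through the electron transfer flavoprotein to the respiratory chain, very long and branched chains are first shortened in peroxisomes, and thioesterases release free acids from acyl-CoA. Proximal tubule cells rely on this pathway for ATP, and PPARα with its coactivator PGC-1α, the products of Ppara and Ppargc1a, switches many of its genes on.

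Gene starts of 2 groups of members lie close together in the genome, and the bases before them are shown because the results below turn on these genes. Hadha and Hadhb, the subunits of the trifunctional protein, are transcribed away from each other on chromosome 5 (Hadha on the minus strand, chr5:30118304-30155162, and Hadhb on the plus strand, chr5:30155248-30184593, GENCODE vM21 on GRCm38), and 85 bases separate their annotated starts. The thioesterase genes Acot2 (chr12:83987861-83993873), Acot1 (chr12:84009490-84018371) and Acot3 (chr12:84052144-84060402) lie in this order on the plus strand of chromosome 12. The stretches below are from the RefSeq promoter table (GRCm38.p6), plus strand, 5′ to 3′, and end at the base before the GENCODE gene start. They are chr5:30155163-30155247 (the whole of the stretch between Hadha and Hadhb), chr12:84009252-84009489, chr12:83987611-83987860 and chr12:84051894-84052143.
Hadhb: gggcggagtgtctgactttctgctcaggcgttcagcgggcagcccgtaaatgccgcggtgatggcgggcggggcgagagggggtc
Acot1: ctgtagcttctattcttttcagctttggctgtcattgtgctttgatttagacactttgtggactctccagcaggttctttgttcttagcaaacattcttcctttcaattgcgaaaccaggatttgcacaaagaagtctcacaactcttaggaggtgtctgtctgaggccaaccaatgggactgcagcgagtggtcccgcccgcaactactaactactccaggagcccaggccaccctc
Acot2: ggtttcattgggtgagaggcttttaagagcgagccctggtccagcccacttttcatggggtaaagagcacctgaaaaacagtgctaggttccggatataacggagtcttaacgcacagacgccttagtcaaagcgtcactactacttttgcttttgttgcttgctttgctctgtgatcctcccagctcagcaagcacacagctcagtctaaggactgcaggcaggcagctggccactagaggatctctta
Acot3: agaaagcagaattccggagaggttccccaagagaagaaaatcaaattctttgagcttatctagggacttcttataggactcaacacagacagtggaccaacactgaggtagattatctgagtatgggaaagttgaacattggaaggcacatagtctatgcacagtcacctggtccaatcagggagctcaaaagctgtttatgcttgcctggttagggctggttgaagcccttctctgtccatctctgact
PPARα binds DNA with a partner receptor at the DR1 element, a direct repeat of AGGTCA with 1 base of any kind between the copies. None of the 4 stretches holds the single motif AGGTCA on either strand, so no base is in capitals, and the window of Acot3 holds 1 match that starts 18 bases after the gene start. RefSeq windows (250 bases before to 50 after a start) were matched for 31 of the 36 members, in 35 windows. The single motif lies on either strand in 7 of the 35 (20.0%), against 5340 of 32851 windows of all genes (16.3%), and the 7 belong to Acadm, Acadvl, Acot3, Acsm1, Cpt1a and Echs1. The DR1 repeat, searched on both strands and overlapping the single motif, lies in 0 of the 35 and in 13 of all 32851 (0.0396%). These matches are descriptions of letters and not binding sites.

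Of 6938 and 7950 barcodes (wild type and knockout), 4317 and 7066 were kept, with a median of 7771 and 7799 UMIs. The libraries share 20 barcodes, 17 of them kept. Kif3a was counted 438 and 966 times in kept cells, 14.5 and 13.6 CPM. In proximal tubule-like cells it held 11.6 and 19.9 CPM, log2 0.78 (0.50 to 1.06). Endothelium-like and immune-like cells together held 16.1 and 15.4 CPM. The deleted part of the gene is not given, and tags from the 3′ end may lie outside it, so these counts do not check the label. The median share of mitochondrial UMIs was 26.8% in wild type and 7.54% in knockout cells, and it moves with genotype in every nephron class. Levels are therefore given as CPM, a gene's UMIs scaled to 1000000 non-mitochondrial UMIs of the class, with the log2 ratio over all UMIs beside those of the whole set. A member was measured in a class where both libraries together held at least 20 of its UMIs, and was called higher or lower where its knockout level differed by 1.5-fold or more relative to the median gene of that class. Classes were built from clusters of both libraries together, clustered without the 36 genes, and are named X-like from marker genes. Most classes sit in different clusters in the 2 libraries. The wild type proximal tubule-like cells (2954) fill clusters 0, 1, 2, 3 and 7 and 883 of the 1042 in knockout fill cluster 15. Thick ascending limb-like cells (338 and 586) lie mostly in cluster 5 for wild type, 16 for knockout. The 188 and 349 distal convoluted tubule-like cells fill mainly clusters 4 and 22, the latter led also by the connecting tubule genes Calb1, Klk1 and S100g. At the lower clustering resolution of 0.5 only 1 knockout cell had this name, against 162 wild type cells. Principal-like cells (168 and 1884) are mainly in cluster 8 in wild type and in clusters 23 and 24 in knockout, the latter led by Lcn2. Intercalated-like cells (288 and 546) are in clusters 6 (type A) and 10 (type B) in both.

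In wild type the 36 genes were highest in the proximal tubule and lowest outside the epithelium. As a set they held 9109 CPM (9069 to 9149.7) in wild type and 6240.2 CPM (6189 to 6292) in knockout in proximal tubule-like cells. The log2 ratio of knockout over wild type was -0.55 (-0.56 to -0.53), or -0.36 over all UMIs. In thick ascending limb-like cells the difference was larger, with 6925 CPM (6814 to 7038) in wild type and 2824 CPM (2784 to 2865) in knockout and a log2 ratio of -1.29 (-1.33 to -1.26), or -0.84 over all UMIs. This segment thus stood next to the proximal tubule in wild type and near the principal cells in knockout. Distal convoluted tubule-like cells held 6434 and 3416 CPM, a log2 ratio of -0.91 (-0.96 to -0.87), or -0.48 over all UMIs. Intercalated-like cells held 5466 and 3384 CPM, -0.69 (-0.72 to -0.66), or -0.42 over all UMIs. Principal-like cells held 3999.8 and 2412 CPM, -0.73 (-0.77 to -0.68), or -0.55 over all UMIs. The knockout level was thus below the wild type level in all 5 nephron classes on both scales. In endothelium-like cells the set held 1787 and 1503 CPM, -0.25 (-0.35 to -0.14), and in immune-like cells 1369 and 1199 CPM. In these cells, which are not tubule cells, the level is that of their own transcripts and free RNA together. The wild type order from proximal tubule through thick ascending limb, distal convoluted tubule and intercalated to principal cells was kept in knockout only at its ends: the proximal tubule stayed first and principal cells last, while the thick ascending limb, the next highest in wild type, stood below the distal convoluted tubule and intercalated cells.

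**Figure D1:**
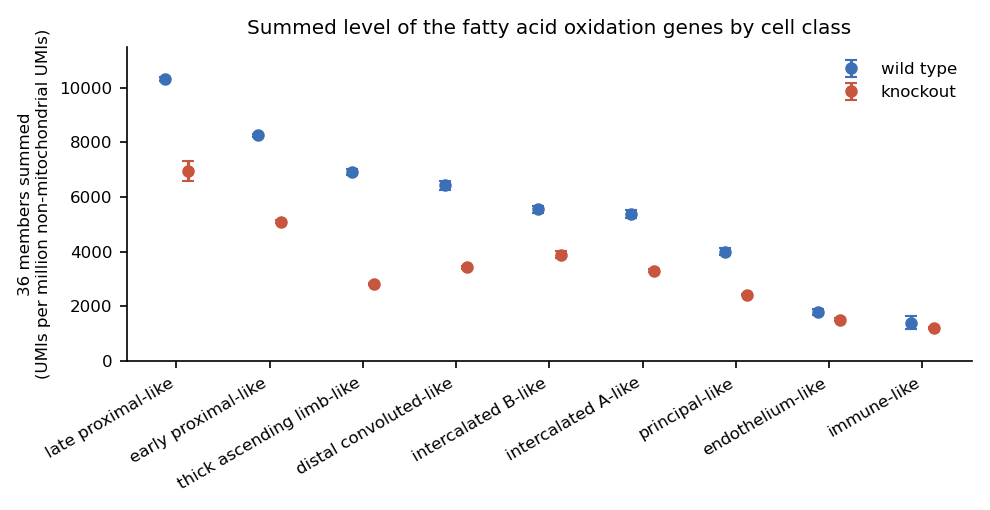
Level of the 36 fatty acid oxidation genes together, in CPM of non-mitochondrial UMIs, in each cell class of the wild type and the knockout library (1 library each); error bars are exact 95% Poisson intervals and cover counting error only. The knockout value lies below the wild type value in each nephron class, in thick ascending limb-like cells with 6925 against 2824.

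Counted one by one, the most members were lower in the thick ascending limb and the distal convoluted tubule. In proximal tubule-like cells 36 members were measured, of which 9 were lower and 2 higher, where 14.8% of all measured genes were lower and 18.9% higher. That count mixes early and late cells, which are told apart below. In early cells alone 15 of 36 were lower and 3 higher, against 16.4% and 19.8% of all genes. This is near the counts of principal-like and intercalated-like cells. In thick ascending limb-like cells 26 of 33 were lower and 0 higher, against 19.2% and 22.1% of all genes. The 7 not called there were Acadl, Decr1, Eci2, Acaa1b, Ehhadh, Hsd17b4 and Acot1. In distal convoluted tubule-like cells 23 of 33 were lower and 2 higher, against 20.9% and 21.7%. In principal-like cells 14 of 33 were lower and 2 higher, against 18.7% and 21.1%, and in intercalated-like cells 14 of 34 were lower and 2 higher, against 14.5% and 18.0%. In endothelium-like cells 1 of 27 was lower (Acsm2) and 0 higher, against 11.6% and 11.9%. Relative to the median gene, the median member stood at -0.26 (log2) in the proximal tubule, -1.07 in the thick ascending limb, -0.85 in the distal convoluted tubule, -0.45 in principal and -0.52 in intercalated cells, and at -0.07 in endothelium, while the median over all genes was within 0.03 of 0 in each. The median gene itself stood at 0.10, 0.01, 0.11, -0.09 and 0.04 in the 5 nephron classes, and over all UMIs at 0.28, 0.46, 0.55, 0.09 and 0.31, in the same order. Over all UMIs, which shifts every gene of a class by the same amount, 9 of 36 members measured in the proximal tubule, 8 of 36 in early proximal tubule-like cells and 3 in each of the other 4 nephron classes changed sign, none of them called. In the proximal tubule these were Ppara, Ppargc1a, Cpt1a, Cpt2, Hadha, Etfb, Etfdh, Hsd17b4 and Abcd3. Of the 112 calls in the 5 classes and in early cells, 9 have an interval that holds 0: Ppara, Cpt2, Decr2, Pex11a and Acot1 in distal convoluted, Ppara, Ehhadh and Acot1 in principal and Acaa1b in intercalated cells. Etfa, Acsl1, Acsm2 and Acat1 were lower in all 5 nephron classes (4 of 36, although Acsm2 is barely present outside the proximal tubule), and Acadl, Decr1 and Hsd17b4 were called in none (3 of 36). Within the clusters shared by both libraries, given below, Etfa and Acat1 were not called lower in distal convoluted and principal cells. The share of all genes that are lower in all 5 classes, or called in none, was not counted. The counts by role below stand against the shares of each class given here.

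**Figure D2:**
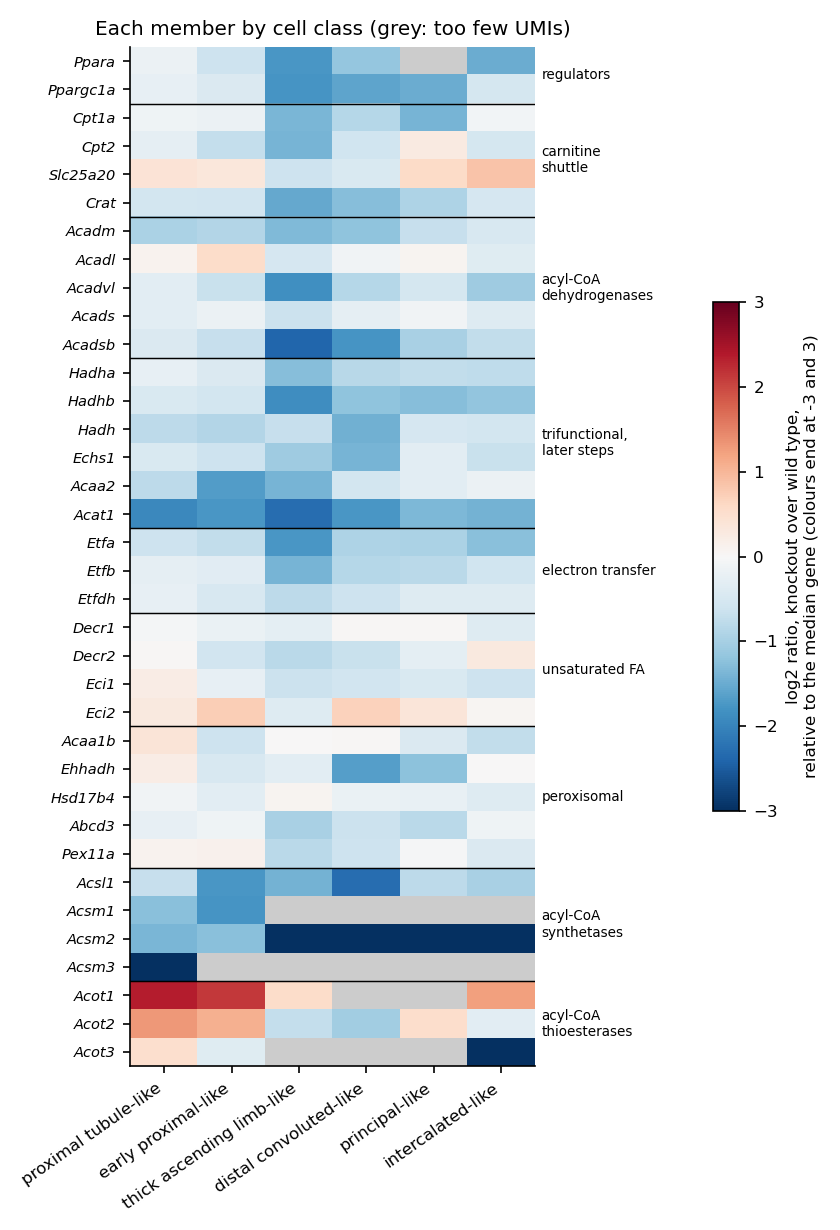
Log2 ratio of knockout over wild type relative to the median gene for each of the 36 genes (rows, by role) in 6 cell classes (columns); blue is lower and red higher in knockout, and grey marks a gene not measured or with 3 UMIs or fewer in either library. The thick ascending limb column is blue in almost every row, with 26 of 33 measured genes called lower, and the proximal tubule column is blue mainly in the rows of the later steps and the synthetases and red for Acot1 and Acot2.

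The proximal tubule set is dominated by 1 gene. Acsm2 alone made 27.1% of the set's UMIs in wild type and 16.5% in knockout proximal tubule-like cells, whereas no member exceeded 10.9% in the wild type thick ascending limb, distal convoluted or intercalated classes. Early (convoluted) cells, which could be told from late (straight) cells by their own sub-clusters, numbered 1793 in wild type and 329 in knockout. There the set held 8260.2 and 5096 CPM, -0.70 (-0.72 to -0.68), or -0.39 over all UMIs, and 15 of 36 members were lower and 3 higher, against 16.4% and 19.8% of all genes. Of these 329 knockout cells, 175 form a sub-cluster rich in Vcam1, a gene raised in injured tubule cells, with a set level of 3825 CPM, against 6947 CPM in the other 154, and without it the log2 ratio was -0.25. Late cells numbered 1150 in wild type, with a set level of 10332 CPM, and 24 in knockout, with 6947 CPM. A further 689 knockout and 11 wild type cells were assigned to neither, with 8145 CPM in wild type and 7751 in knockout. Where a member differs between early and late cells, the all-cell comparison also compares these mixtures, and the early value is given beside it below.

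Among the regulators, Ppara, the nuclear receptor itself, was highest in the proximal tubule and nearly level there, with 69.0 CPM in wild type and 65.2 CPM in knockout, log2 -0.08 (95% interval -0.22 to 0.06). In early cells it was lower, 69.5 and 48.3 CPM, log2 -0.52 (95% interval -0.74 to -0.32), with 31.5 CPM in the Vcam1-rich sub-cluster and 72.7 CPM in the other, so the call rests on the former. Its levels were low elsewhere, with 10.9 and 3.29 CPM in thick ascending limb, 10.9 and 5.41 CPM in distal convoluted and 14.0 and 5.16 CPM in intercalated cells, and each was called lower, in distal convoluted cells with an interval that holds 0. In principal cells it had 0 and 33 UMIs, too few in wild type to give a direction. Ppargc1a had the opposite distribution in wild type, with 90.0 CPM in the proximal tubule and 424 in the thick ascending limb. Its knockout levels were 80.6 and 125 CPM, log2 -0.16 (95% interval -0.28 to -0.04) and -1.76 (95% interval -1.89 to -1.62). It was also lower in distal convoluted cells, 388 and 139 CPM, log2 -1.48 (95% interval -1.68 to -1.28), and in principal cells, 192 and 63.8 CPM, log2 -1.59 (95% interval -1.80 to -1.37). Intercalated cells held 288 and 203 CPM, a difference not called. The coactivator was thus lower in 3 of the 5 classes.

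No gene of the carnitine shuttle was called over all proximal tubule cells, and all 4 were lower in the thick ascending limb. Cpt1a, which makes acylcarnitine at the outer mitochondrial membrane and is the rate-limiting step, held 119.7 CPM in wild type and 118 CPM in knockout in the proximal tubule, log2 -0.02 (95% interval -0.13 to 0.08), and over all UMIs the ratio was 0.16. In the thick ascending limb it held 234 and 91.4 CPM, log2 -1.36 (95% interval -1.53 to -1.19), and in principal cells 112 and 40.1 CPM, log2 -1.48 (95% interval -1.75 to -1.19). Distal convoluted cells held 281 and 167 CPM, also lower, and intercalated cells 82.0 and 79.9 CPM, nearly level. Cpt2, which returns the acyl group to CoA inside, held 65.6 and 58.1 CPM in the proximal tubule. In early cells it was lower, 57.0 and 37.4 CPM, log2 -0.61 (95% interval -0.85 to -0.38), with 31.5 CPM in the Vcam1-rich sub-cluster and 45.9 CPM in the other. It held 40.7 and 15.5 CPM in the thick ascending limb, log2 -1.39. Crat, carnitine acetyltransferase, held 59.1 and 20.6 CPM there, log2 -1.52. Slc25a20, the carrier that exchanges acylcarnitine for carnitine across the inner membrane, did not follow the others: 24.3 and 34.8 CPM in the proximal tubule, 31.2 and 20.6 CPM in the thick ascending limb, log2 -0.60 (95% interval -1.03 to -0.15), and 13.2 and 24.7 CPM in intercalated cells, log2 0.89 (95% interval 0.35 to 1.51). It was therefore lower in the thick ascending limb and higher in intercalated cells. Of the 4 shuttle genes, 4 were lower in the thick ascending limb, 3 in the distal convoluted tubule, 2 in principal cells, and 0 in the proximal tubule and intercalated cells. The shares of all genes lower were 19.2%, 20.9%, 18.7%, 14.8% and 14.5%, in the same order.

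The mitochondrial acyl-CoA dehydrogenases, which open each turn of the cycle, differed from one another in how far they were lower. Acadm, the medium-chain enzyme, was lower in the proximal tubule, with 721 CPM in wild type and 402 CPM in knockout, log2 -0.84 (95% interval -0.90 to -0.79). Early cells held 511 and 298 CPM and wild type late cells 1022 CPM, so both the segment mix and the early cells differ. It was also lower in the thick ascending limb, 574 and 232 CPM, in distal convoluted cells, 466 and 219 CPM, and in principal cells, 318 and 185 CPM. Acadl, the long-chain enzyme of rodents, was called in none of the 5 classes, with 223 and 257 CPM in the proximal tubule and 334 and 236 CPM in the thick ascending limb. Acadvl, the very long-chain enzyme of the inner membrane, held 161 and 137 CPM in the proximal tubule and 257 and 72.7 CPM in the thick ascending limb, log2 -1.82, and was lower in distal convoluted cells, 192 and 114 CPM, and intercalated cells, 177 and 87.1 CPM, too. It was also called lower in early proximal cells. There the Vcam1-rich knockout sub-cluster held 93.6 CPM, the other 139 CPM and the wild type early sub-clusters 163 to 175 CPM. Acadsb, which acts on short branched chains from isoleucine, had the largest difference of the group: 351 and 68.2 CPM in the thick ascending limb, log2 -2.36 (95% interval -2.53 to -2.19). It was lower as well in distal convoluted cells, 312 and 98.2 CPM, log2 -1.67, in principal cells, 114 and 54.8 CPM, and in intercalated cells, 99.8 and 61.3 CPM. Over all proximal tubule cells it was within the 1.5-fold limit, but it was called lower in early ones. There the Vcam1-rich knockout sub-cluster held 39.7 CPM, the other 56.0 CPM and the wild type early sub-clusters 65.3 to 78.1 CPM. Acads, the short-chain enzyme, was lower only in the thick ascending limb among the 5 classes, from 77.5 CPM in wild type, log2 -0.63 (95% interval -0.91 to -0.35).

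The genes of the trifunctional protein, which carries out the later steps on long chains, were within the 1.5-fold limit over all proximal tubule cells. Both were lower in the other 4 nephron classes. Hadha held 174 and 155 CPM and Hadhb 165 and 128 CPM in proximal tubule-like cells, neither called. In the thick ascending limb Hadha held 433 and 181 CPM, log2 -1.26 (95% interval -1.38 to -1.13), and Hadhb 448 and 124 CPM, log2 -1.86 (95% interval -1.99 to -1.72). Both were lower in distal convoluted cells (332 and 202 CPM, and 435 and 205 CPM), in principal cells (269.8 and 152 CPM, and 276 and 107 CPM) and in intercalated cells (385 and 232 CPM, and 454 and 204 CPM). The pair that starts 85 bases apart was therefore called together in 4 of the 5 classes and in neither gene in the other one, with Hadhb the lower of the 2 ratios each time.

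The matrix enzymes for shorter chains differed in the proximal tubule as well. Hadh, the short-chain 3-hydroxyacyl-CoA dehydrogenase, held 575 and 359 CPM in the proximal tubule and 480.2 and 189.8 CPM in distal convoluted cells, log2 -0.68 and -1.34. Its call in early proximal cells was also lower. There the Vcam1-rich knockout sub-cluster held 251 CPM, the other 417 CPM and the wild type early sub-clusters 436 to 636 CPM. Echs1, the short-chain hydratase, was within the 1.5-fold limit over all proximal tubule cells and lower in distal convoluted cells, 524 and 216 CPM, in the thick ascending limb, 366 and 176 CPM, and in intercalated cells, 329 and 211 CPM. In early proximal cells Echs1 was called lower. The Vcam1-rich knockout sub-cluster held 141 CPM, the other 178 CPM and the wild type early sub-clusters 175 to 268 CPM. Acaa2, the mitochondrial thiolase, held 488 and 303 CPM in the proximal tubule. In wild type it is an early gene, 682 CPM in early against 212 in late cells, and the early comparison was larger, 682 and 229 CPM, log2 -1.57 (95% interval -1.66 to -1.48), with 138 CPM in the Vcam1-rich sub-cluster and 363 CPM in the other. Acat1, the acetoacetyl-CoA thiolase of ketone body and isoleucine breakdown, was lower in every nephron class. It held 572 CPM in wild type and 161 CPM in knockout in the proximal tubule, log2 -1.83 (95% interval -1.91 to -1.75), although its wild type level was higher in late (831 CPM) than in early cells (392 CPM, against 125 in knockout). The thick ascending limb held 610.3 and 125 CPM, log2 -2.28 (95% interval -2.41 to -2.16), distal convoluted cells 583 and 187 CPM, principal cells 274 and 102 CPM and intercalated cells 415 and 159 CPM. Of the 6 genes of this role, 3 were lower in the proximal tubule, 6 in the thick ascending limb, 5 in the distal convoluted tubule, 3 in principal and 4 in intercalated cells. The shares of all genes lower were 14.8%, 19.2%, 20.9%, 18.7% and 14.5%, in the same order.

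The electron transfer flavoprotein takes up the electrons of the acyl-CoA dehydrogenases. Its α subunit gene Etfa was lower in all 5 classes, most in the thick ascending limb, 474 and 142 CPM, log2 -1.73 (95% interval -1.86 to -1.60), and in intercalated cells, 598 and 257 CPM, log2 -1.22 (95% interval -1.32 to -1.12), where it was the most abundant member in wild type (10.9% of the set). The proximal tubule held 355 and 248 CPM, distal convoluted cells 356 and 202 CPM and principal cells 215 and 104 CPM. Etfa was lower in early proximal cells too. The Vcam1-rich knockout sub-cluster held 179 CPM, the other 262 CPM and the wild type early sub-clusters 302 to 358 CPM. Etfb, the β subunit, was within the limit in the proximal tubule, 664 and 592 CPM, log2 -0.16 (95% interval -0.21 to -0.12), and 0.02 over all UMIs. It was lower in the other 4 classes, with 558 and 214 CPM in the thick ascending limb, 430.3 and 257 CPM in distal convoluted, 391 and 210.0 CPM in principal and 360.2 and 243 CPM in intercalated cells. Etfdh, which passes the electrons on to ubiquinone, was lower in the thick ascending limb, 48.2 and 28.2 CPM, and distal convoluted tubule, 53.2 and 37.6 CPM.

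**Figure D3:**
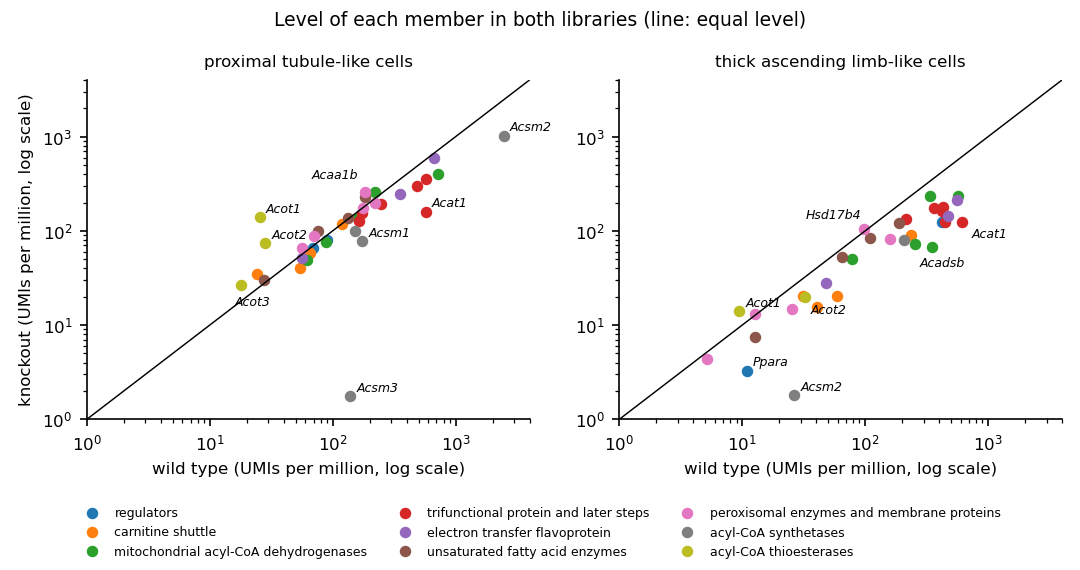
Level of each of the 36 genes in wild type (x axis) and knockout (y axis), in CPM of non-mitochondrial UMIs on log axes, in proximal tubule-like cells (left) and thick ascending limb-like cells (right), coloured by role; genes at 0 are not drawn and the line marks equal levels. In the proximal tubule most points lie near the line, with Acot1 and Acot2 above it and Acsm3, Acsm2 and Acat1 below, while in the thick ascending limb most points lie below it.

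No enzyme for unsaturated fatty acids and no peroxisomal protein was called over all proximal tubule cells. Of the 4 former, 2 were lower in the thick ascending limb and 1 each in distal convoluted and intercalated cells. Of the 5 latter, 2 were lower in the thick ascending limb, 3 in distal convoluted, 2 in principal and 1 in intercalated cells. The shares of all genes lower in these classes were 19.2%, 20.9%, 18.7% and 14.5%, in the same order. Decr1, the mitochondrial 2,4-dienoyl-CoA reductase, held 133 and 136 CPM in the proximal tubule and was called in no class. Eci1, the mitochondrial enoyl-CoA isomerase, held 183 and 227 CPM in the proximal tubule and was lower in intercalated cells, 206 and 138 CPM, and in the thick ascending limb, 189 and 122 CPM. Eci2, a further isomerase, was called higher in early proximal cells, 49.2 and 88.0 CPM, log2 0.84 (95% interval 0.66 to 1.02), and in distal convoluted cells, 53.2 and 93.0 CPM, log2 0.79 (95% interval 0.37 to 1.27). Decr2, the peroxisomal reductase, was called lower in the thick ascending limb, 12.8 and 7.47 CPM, and in distal convoluted cells, 10.9 and 7.57 CPM, where its interval (-1.61 to 0.69) holds 0. In the proximal tubule 0 of the 5 peroxisomal members were called. The thiolase Acaa1b held 185 and 259 CPM there, the bifunctional enzyme Ehhadh 71.1 and 89.1 CPM and the D-bifunctional enzyme Hsd17b4 176 and 175 CPM. The fatty acid transporter Abcd3 held 219.5 and 199 CPM and Pex11a, which drives peroxisome division, 56.8 and 65.8 CPM. Acaa1b is a late gene in wild type, 299 CPM against 105 in early cells, where knockout cells held 73.0 CPM and it was called lower. Acaa1b cannot be fully told from Acaa1a, since 35.1% of 60-base stretches at the end of its transcripts also occur in Acaa1a. Outside the proximal tubule Abcd3 was lower in the thick ascending limb, 160.3 and 82.4 CPM, in distal convoluted, 198 and 138 CPM, and in principal cells, 166 and 88.9 CPM. Pex11a was lower in the thick ascending limb, 25.5 and 14.8 CPM, and in distal convoluted cells, 23.9 and 17.0 CPM. Ehhadh was scarce and called lower in distal convoluted, 10 and 14 UMIs, and principal cells, 5 and 58 UMIs.

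The acyl-CoA synthetases, which activate fatty acids, were lower in the proximal tubule without exception (4 of 4, against 14.8% of all genes). Acsl1, the main long-chain enzyme, held 152 and 101 CPM over all proximal tubule cells. It is an early gene in wild type (213 CPM against 64.9 in late cells), and early knockout cells held 67.9 CPM, log2 -1.65 (95% interval -1.81 to -1.49), with 41.4 CPM in the Vcam1-rich sub-cluster and 107 CPM in the other. It was lower in the thick ascending limb, 209 and 79.4 CPM, in distal convoluted cells, 194 and 43.0 CPM, log2 -2.18 (95% interval -2.49 to -1.86), in principal cells, 40.0 and 21.9 CPM, and in intercalated cells, 124 and 65.4 CPM. The medium-chain synthetase genes Acsm2 (chr7:119554340-119600690), Acsm1 (chr7:119607026-119662515) and Acsm3 (chr7:119760923-119787513) follow each other on the plus strand of chromosome 7 and are proximal tubule genes. Acsm2 held 2469 CPM in wild type and 1027 CPM in knockout, log2 -1.27 (95% interval -1.30 to -1.23), and the 24 late knockout cells held 126 CPM against 2660.3 in wild type late cells. Acsm1 held 175 and 77.8 CPM, log2 -1.16 (95% interval -1.28 to -1.05), and 218 and 68.3 CPM in early cells. Acsm3 is a late gene in wild type (334 CPM, against 2.39 in early cells). Over all proximal tubule cells it held 2984 and 16 UMIs, 139 and 1.75 CPM. Within the 24 late knockout cells it held 24.3 CPM (7.88 to 56.6, from 5 UMIs). Cells assigned as late were thus fewer in knockout, 24 against 1150, and those held less Acsm3. The 689 knockout cells assigned to neither segment held some late markers and lacked others. In their sub-clusters Napsa stood at 788 and 734 CPM, Slc5a1 at 53.5 and 54.8 CPM and Slc7a13 at 0 and 0.428 CPM. Of the late markers 2 and 3 reached 50 CPM in them, and of the early markers 6 in each. Napsa also stood at 194 and 210 CPM in the early knockout sub-clusters, against 15.9 to 20.7 CPM in the wild type early ones. The number of late cells in knockout therefore depends on the marker rule, and a loss of late cells was not tested. Outside the proximal tubule the traces of Acsm2 lie below those in cells that should lack it: 26.5 and 1.79 CPM in the thick ascending limb is 0.221 and 0.266 times the level in endothelium-like and immune-like cells together, so its calls there are no measure of the tubule cells.

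Among the thioesterases Acot1 and Acot2 stood higher in the knockout proximal tubule. Acot1, the cytosolic enzyme, held 25.5 CPM in wild type and 140.4 CPM in knockout in the proximal tubule, log2 2.46 (95% interval 2.31 to 2.61), and early cells showed the same direction, 20.6 and 96.6 CPM, log2 2.23 (95% interval 2.01 to 2.45). Acot2, the mitochondrial enzyme, held 28.2 CPM in wild type and 74.3 CPM in knockout, log2 1.40 (95% interval 1.24 to 1.56). The direction was the opposite in the thick ascending limb, where Acot2 held 32.1 and 19.9 CPM, log2 -0.70 (95% interval -1.13 to -0.25), and in distal convoluted cells, with 36.9 and 19.5 CPM, log2 -0.94 (95% interval -1.53 to -0.29). Acot1 was scarce outside the proximal tubule, with 3 and 35 UMIs in distal convoluted, 3 and 154 UMIs in principal and 6 and 42 UMIs in intercalated cells. Its values and those of Acot2 carry an uncertainty between near-identical copies: 55 of 882 stretches of 60 bases at the end of Acot1 transcripts (6.24%) also occur in Acot2, and 0 of 441 in the other direction. Acot3, a peroxisomal enzyme, shared none with either. It held 17.8 and 26.8 CPM in the proximal tubule, within the limit, but in wild type it was an intercalated cell gene, 166 CPM, and stood at 19.9 CPM in knockout, log2 -3.06 (95% interval -3.36 to -2.77). Both intercalated types showed it: 97.5 and 9.60 CPM in type A and 225 and 84.4 CPM in type B. Its intercalated level was 113 and 62.0 times that of endothelium-like and immune-like cells. The 3 neighbouring genes on chromosome 12, whose upstream stretches are printed above, thus differed in direction and in cell type.

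Since most classes lie in different clusters in the 2 libraries, the same clusters were also compared. Knockout cells in the proximal tubule clusters that wild type cells fill did not share the lower set level. In clusters 0, 1 and 2, with 1844 wild type and 155 knockout cells, the set held 8304 CPM in wild type and 8466 CPM in knockout, log2 0.03 (-0.02 to 0.08). Of the 36 members 4 were lower (Hadhb, Acsl1, Acsm1 and Acsm2) and 11 higher, against 19.4% and 18.4% of all genes. Cluster by cluster the log2 ratio was 0.05 in cluster 0, -0.08 in cluster 1 and 0.07 in cluster 2. These clusters held 30, 102 and 23 knockout cells. The knockout sums of the whole set were 1544, 1532 and 617 UMIs, so calls of single members there rest on few counts. Of 35 members measured in each, 13 were higher and 4 lower in cluster 0, against 24.1% and 18.0% of all genes, 10 and 6 in cluster 1, against 19.3% and 15.4%, and 11 and 2 in cluster 2, against 31.1% and 22.5%. Acot1 was called higher in each of them, with 19.7 and 81.7 CPM, 31.7 and 124 CPM and 18.1 and 59.6 CPM in clusters 0, 1 and 2. No intervals are given for these values. Cluster 15, which holds most of the knockout cells of the class, was at 6118 CPM. By sub-cluster of all knockout proximal tubule-like cells the set ranged from 3825 CPM in the sub-cluster with the most Vcam1 (175 cells), over 6947 CPM in the other early one (154 cells) to 7495 and 8162 CPM in the unresolved ones (310 and 379 cells). In distal convoluted cluster 4 the set held 6537 and 5989 CPM (176 and 28 cells), log2 -0.13 (-0.25 to -0.01), with 6 of 28 members lower and 1 higher, against 35.3% and 16.3%. Those lower were Ppargc1a, Abcd3, Pex11a, Acsl1, Acsm2 and Acot2, and Eci2 was higher. In principal cluster 8 the set held 4048 and 3447 CPM (158 and 148 cells), log2 -0.23 (-0.29 to -0.17), with 2 of 29 lower and 3 higher, against 12.8% and 10.5%. Acsl1 and Acsm2 were lower there, and Cpt2, Eci2 and Acot2 higher. The intercalated clusters kept their difference: type A held 5368 and 3304 CPM, log2 -0.70 (-0.74 to -0.66), with 17 of 34 lower and 2 higher, against 16.1% and 19.6%. Type B held 5551 and 3890.0 CPM, log2 -0.51 (-0.57 to -0.45), with 11 of 32 lower and 1 higher, against 18.8% and 12.8%. The mitochondrial share of summed UMIs was 18.9% and 15.0% in cluster 8, 25.8% and 11.3% in cluster 6 and 27.8% and 13.9% in cluster 10, and the median share in cluster 0 was 31.5% and 21.5%. No thick ascending limb cluster held 20 or more cells of both libraries, so this segment has no such comparison. Acsl1 was called lower in all 7 of these clusters, in clusters 2 and 4 on 23 and 28 knockout cells only. Etfa and Acat1, lower in all 5 whole classes, were called lower in clusters 6 and 10. Neither was called lower in clusters 0, 1 and 2 together, in 4 or in 8, although Acat1 was in cluster 1 alone. In cluster 4 Etfa held 360 and 448 CPM and Acat1 576 and 572 CPM.

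**Figure D4:**
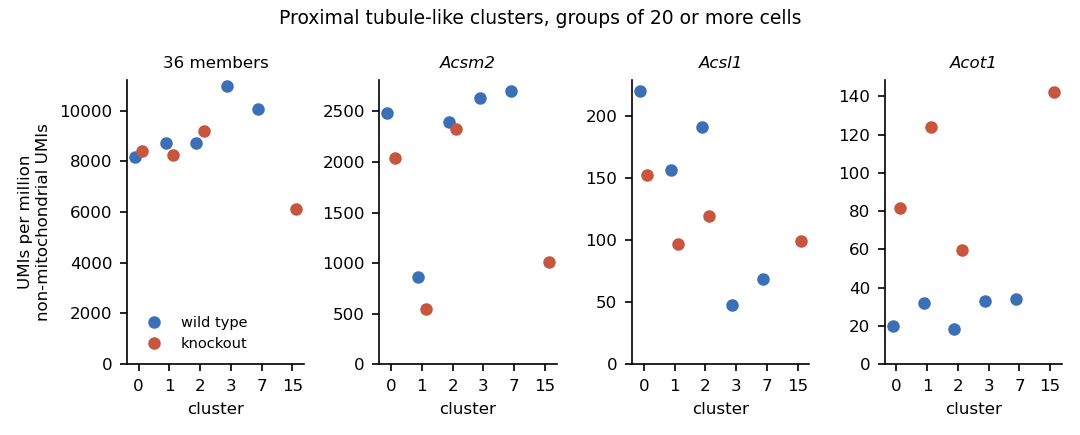
Level of the 36 genes together and of Acsm2, Acsl1 and Acot1, in CPM of non-mitochondrial UMIs, in proximal tubule-like clusters 0, 1, 2, 3, 7 and 15. Each point is a group of 20 or more cells of 1 library, and no intervals are drawn. In clusters 0, 1 and 2 the 36 genes held 8155, 8730 and 8737 CPM in wild type and 8412, 8259 and 9188 CPM in knockout. Knockout cells of cluster 15 held 6118 CPM.

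The mitochondrial share and stress transcripts also differed between the libraries in every nephron class. The mitochondrial share of a class's summed UMIs in wild type and knockout was 29.4% and 19.7% in the proximal tubule, 33.7% and 9.28% in the thick ascending limb, 36.2% and 13.7% in distal convoluted, 18.4% and 7.44% in principal and 26.9% and 11.7% in intercalated cells. Within proximal tubule-like cells the log2 ratio was -1.20 among cells with under 10% mitochondrial UMIs, -0.51 from 10 to 25% and -0.20 from 25 to 50%. In distal convoluted cells it was -1.21, -0.87 and -0.40, and in intercalated cells -1.33, -0.51 and -0.44, in the same order. In the thick ascending limb it was -0.77 from 10 to 25% and -0.65 from 25 to 50%, and below 10% only 12 wild type cells were found. In principal cells it was -0.54, -0.51 and -0.41. The ratio stayed below 0 in every bin compared and was smallest among the cells richest in mitochondrial UMIs. At 10 to 25% the distal convoluted ratio, -0.87, was farther from 0 than that of the thick ascending limb, -0.77. In wild type the set level did not climb with the share over all proximal tubule cells or in distal convoluted or intercalated cells. It did climb in principal cells, with 3456, 3974 and 4617 CPM from low to high share. The thick ascending limb held 6236 CPM from 10 to 25% and 7039 CPM from 25 to 50%. Early proximal cells held 8091, 7813 and 8427 CPM. The 12 dissociation stress genes (Fos, Jun and the like) summed to 106 and 312 CPM in the proximal tubule, 249.6 and 1172 CPM in the thick ascending limb, 218 and 827 CPM in distal convoluted, 509 and 687 CPM in principal and 362 and 1017 CPM in intercalated cells. Among cells with few of these transcripts the set's log2 ratio was -0.39, -0.95, -0.48, -0.73 and -0.45, in this order of classes. The part of the mitochondrial share and of stress in the differences was not tested beyond these values.

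**Figure D5:**
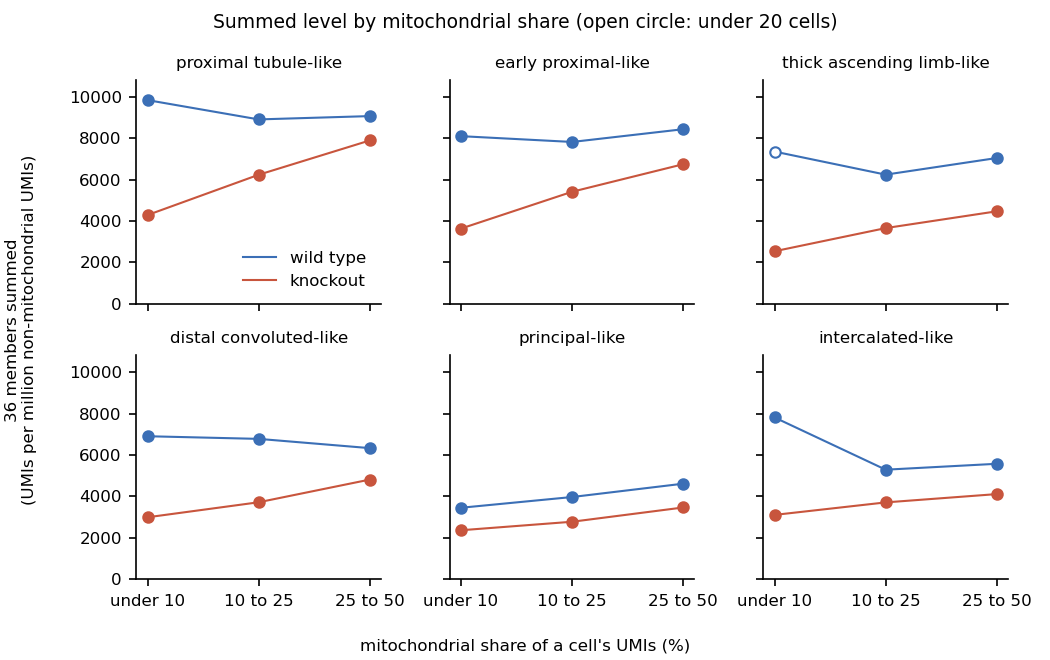
Level of the 36 genes together, in CPM of non-mitochondrial UMIs, in wild type and knockout cells grouped by their share of mitochondrial UMIs (under 10%, 10 to 25%, 25 to 50%), by cell class. The knockout level climbs with the mitochondrial share, in the proximal tubule from 4288 over 6231 to 7884, while the wild type level there stays between 8899 and 9830.2.

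Other genes of fatty acid, ketone and branched-chain oxidation, 71 in all, leaned the same way as the members, and their counts stand against the same shares of all genes as above. In the proximal tubule 23 of 64 measured were lower and 5 higher, in the thick ascending limb 34 of 57 lower and 2 higher, in the distal convoluted tubule 32 of 56 and 3, in principal cells 23 of 58 and 4, and in intercalated cells 33 of 61 and 2. Oxct1, the enzyme that activates ketone bodies and works beside Acat1, held 1887 and 392 CPM in the thick ascending limb, log2 -2.27 (95% interval -2.34 to -2.19), 3053 and 532 CPM in distal convoluted, log2 -2.52 (95% interval -2.60 to -2.44), and 893 and 274 CPM in intercalated cells. Ivd, isovaleryl-CoA dehydrogenase of leucine breakdown, held 129.5 and 27.3 CPM in the thick ascending limb, 136 and 41.1 CPM in distal convoluted and 76.3 and 26.5 CPM in principal cells. In the proximal tubule the CoA diphosphatase Nudt19 held 761 and 121 CPM, log2 -2.65 (95% interval -2.74 to -2.56), and Amacr, the racemase for branched chains in peroxisomes, 172 and 37.9 CPM.

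Partners and related regulators of PPARα, 17 genes, were lower or within the limit in both the proximal tubule and the thick ascending limb. In the proximal tubule 8 of 16 measured were lower and 0 higher, against 14.8% and 18.9% of all genes, including Esrra, an orphan receptor that works with PGC-1α (112 and 59.9 CPM), Hnf4a (431 and 252 CPM), Rxra, the partner of PPARα (40.3 and 27.9 CPM), and Lpin1 (80.6 and 43.6 CPM). In the thick ascending limb 9 of 15 were lower and 0 higher, against 19.2% and 22.1%, including Ppargc1b (65.7 and 12.4 CPM), Esrrb (62.4 and 10.5 CPM) and Esrrg (36.9 and 8.36 CPM). Of 22 known targets of PPARα outside the members, 16 were measured in the proximal tubule, 9 of them higher and 3 lower, against 18.9% and 14.8% of all genes. In early cells 6 of 13 were higher and 3 lower, against 19.8% and 16.4%, and their median relative to the median gene was 0.05, against 1.12 over all proximal tubule cells. Those higher over all proximal tubule cells include the ω-hydroxylase Cyp4a10 (57.6 and 166 CPM), Angptl4, a secreted lipase inhibitor (15.2 and 48.9 CPM), the lipid droplet protein Plin2 (102 and 258 CPM), Vnn1 (28.5 and 61.4 CPM) and Pdk4, which shuts pyruvate out of oxidation (1.58 and 7.66 CPM). Of these, Vnn1 was not called in early cells (25.3 and 28.0 CPM) and Pdk4 was not measured there. The fatty acid carrier Fabp3 was lower over all proximal tubule cells (814 and 516 CPM), and its relative Fabp1 was higher over all proximal tubule cells and lower in early ones. In the other classes few were measured: 3 of 8 were higher and 3 lower in the thick ascending limb, against 22.1% and 19.2%. In principal cells 0 of 7 were higher and 5 lower, against 21.1% and 18.7%, and in intercalated cells 0 of 7 and 3, against 18.0% and 14.5%.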

How the data were processed

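Single-cell 3′ tag libraries (10x Chromium, v3 kit) of 1 wild type and 1 Kif3aΔTub kidney sample were deposited as UMI counts per gene and barcode, whole numbers and not normalized by the authors. The deposited counts name Cell Ranger 3.1.0 per the file headers, whereas Cell Ranger 3.0.2, Seurat 3.1.1 and the mm10 build are named per the submitters' processing notes. The strand setting is not given in the sources used here, and tags of overlapping or near-identical genes cannot be told apart. The 36 members and all other lists were chosen with earlier results of these data known. The naming rule of clusters was written after the clusters were seen.

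Barcodes with at least 500 UMIs, 200 genes and under 50% mitochondrial UMIs were kept (4371 and 7236), and 54 wild type and 170 knockout cells called as doublets by Scrublet were removed. Kept cells held 42468386 and 79060495 UMIs. They were clustered together (scanpy 1.11.5, igraph 0.11.9, resolution 1, seed 0, 2000 variable genes per library, 30 components, 15 neighbours) without the members, related genes and mitochondrial genes. A cluster was named from at least 3 markers at 50 CPM and a level 2-fold that of the median among other clusters, with at least 1 among its 10 leading genes. Connecting tubule markers were not counted against the name of distal convoluted tubule. UMIs were summed per class and library. A log2 ratio has 0.5 UMI added to each sum and an exact conditional binomial 95% interval, and levels have exact Poisson intervals. Intervals cover counting error only, and cells are not replicates. The median gene is over genes with at least 100 UMIs. All 36 members were described. Other pathway genes were named by rule, the 4 with the largest log2 ratio per class with at least 50 UMIs, of which some are given. Regulators and PPARα targets given by name are examples chosen after their values were seen. Free RNA was gauged by the level in endothelium-like and immune-like cells. Alternatives were other denominators, cell limits, clusterings, thinning to 1000 UMIs per cell, fold limits and the most abundant member left out. The interval was checked on simulated Poisson counts. These hold no variation between cells, animals or libraries, so the check covers only the calculation. A planned comparison of protein sequences was not run.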

Additional observations from a re-analysis of the deposited data

Results flagged for a closer look

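Acot2, the mitochondrial acyl-CoA thioesterase, differed between the libraries in opposite directions in different nephron classes, with both counting intervals clear of the median gene. Its log2 ratio of knockout over wild type was 1.40 in proximal tubule-like cells, -0.70 in thick ascending limb-like cells and -0.94 in distal convoluted tubule-like cells. In the thick ascending limb these ratios rest on 68 and 133 UMIs in wild type and knockout, and in the distal convoluted tubule on 34 and 72 UMIs. Among distal convoluted cells with under 10% mitochondrial UMIs the ratio relative to the median gene was 1.58. Slc25a20, the acylcarnitine carrier, likewise stood at 0.89 in intercalated-like cells (31 and 158 UMIs) and at -0.60 in thick ascending limb-like cells (66 and 138 UMIs). With 1 library per genotype the difference between classes was not tested for either gene.

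A cluster of 37 knockout cells (cluster 29) that belongs to none of the compared classes held the 36 genes at 11197 CPM, above every wild type class, of which late proximal tubule-like cells were highest at 10332 CPM. Its leading genes were Cfd, Fabp4, Hp, Car3, Retn, Scd1 and Adipoq, genes known from fat cells. It holds no wild type cell, and it stays unnamed because no marker list for such cells had been set.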

How the results depend on the processing

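No paired analysis was possible because each genotype has 1 library. For the same reason no replicate could be left out. Depth limits the rarer members: Acot1 and Ppara outside the proximal tubule, and Acot3 outside the proximal tubule and intercalated cells, rest on few UMIs. The number of animals behind each library is not stated, so no spread between animals can be given. The set's log2 ratio of knockout over wild type stayed below 0 under the alternatives listed here, from -1.20 to -0.20 in proximal tubule (16 values), -1.15 to -0.25 in early proximal (12), -1.31 to -0.65 in thick ascending limb (15), -1.21 to -0.40 in distal convoluted (14), -0.73 to -0.23 in principal (17) and -1.33 to -0.42 in intercalated cells (18). The comparison of the same clusters, which is not counted among these, gave 0.03 in proximal tubule clusters 0, 1 and 2 and -0.13 in distal convoluted cluster 4, outside those ranges.

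The values that moved beyond the counting interval follow, in the order proximal tubule (PT), early proximal, thick ascending limb (TAL), distal convoluted (DCT), principal (PC) and intercalated (IC) where a class is not named. Over all UMIs the ratio was -0.36, -0.39, -0.84, -0.48, -0.55 and -0.42. Without ribosomal and the 50 most abundant genes in the denominator it was -0.51 in PT, -0.66 in early, -1.20 in TAL, -0.62 in PC and -0.64 in IC. With a mitochondrial limit of 25% it was -0.67 in PT, -1.20 in TAL, -1.07 in DCT and -0.68 in PC, and members higher numbered 1 in TAL, 4 in PC and 4 in IC. At resolution 2 it was -0.44 in PT, -0.61 in PC and -0.56 in IC, and at resolution 0.5 -0.77 in IC. With each library clustered alone it was -0.44 in PT and -0.56 in PC, with 4 members higher in PT, 1 in DCT and 1 in PC. With the members among the clustering genes it was -0.41 in PT, -0.55 in PC and -0.55 in IC. Thinned to 1000 UMIs per cell it was -0.41 in PT, -0.72 in early, -0.80 in DCT, -0.66 in PC and -0.65 in IC. Without the most abundant member it was -0.35 in PT, -0.55 in early, -1.23 in TAL, -0.86 in DCT and -0.64 in IC. With doublets kept it was -0.86 in DCT, -0.56 in PC and -0.78 in IC.

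A stricter limit of 2-fold left 4, 6, 17, 13, 6 and 7 members lower, and 1 higher in each of DCT, PC and IC. Asking for 100 UMIs also left 1 higher in each of these. For member counts under alternatives, above and below, the share over all genes was not counted, so they cannot be set against one. Alternatives added after the data were seen were these. Among cells with few stress transcripts the ratio was -0.39 in PT, -0.52 in early, -0.95 in TAL, -0.48 in DCT and -0.45 in IC, with 5 members lower in PT, 9 in early, 10 in DCT and 9 in IC, and 5 higher in PT, 2 in TAL, 1 in DCT and 1 in IC. Under 10% mitochondrial UMIs it was -1.20 in PT, -1.15 in early, -1.21 in DCT, -0.54 in PC and -1.33 in IC. From 10 to 25% it was -0.51, -0.53, -0.77, -0.87, -0.51 and -0.51, and from 25 to 50% -0.20, -0.32, -0.65, -0.40, -0.41 and -0.44. Without the Vcam1-rich sub-cluster the early ratio was -0.25, in the shared cluster alone the PC ratio was -0.23, and in type B alone the IC ratio was -0.51.

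Of 599 values of 112 called members under alternatives, 17 changed direction. Many others kept their direction but moved beyond the counting interval. These were 61 of 105 among cells with few stress transcripts and 48 of 107 with a mitochondrial limit of 25%. In the mitochondrial bins, from low to high share, they were 60 of 78, 60 of 99 and 73 of 98. Adding 1 UMI moved none of 112. The values of the 17, as log2 ratios relative to the median gene, follow. From 25 to 50% mitochondrial UMIs these were Acaa1b in early (0.13), Slc25a20 in TAL (0.65), Etfb in IC (0.019) and, in DCT, Cpt1a (0.23), Acadvl (0.17), Etfb (0.13), Etfdh (0.15) and Pex11a (0.050). From 10 to 25% it was Etfdh in TAL (0.12). Under 10% they were Acot2 in DCT (1.58), Ppara (-0.89) and Crat (1.13) in PC, and Acadsb (1.72), Acsl1 (0.17) and Acot1 (-1.39) in IC. Decr2 in DCT turned with a mitochondrial limit of 25% (1.34) and Pex11a in DCT among cells with few stress transcripts (0.030). The cause was not tested for any of these. Not run were TAL under 10% (12 wild type cells) and DCT at resolution 0.5 and with the members among the clustering genes. In DCT these clusterings left 162 and 163 wild type cells but 1 knockout cell each. The knockout DCT class, and so its comparison, therefore depends on the clustering.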

Other observations

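Cell groups outside the compared classes, apart from cluster 29 above, held the set below the wild type thick ascending limb. Cycling cells (cluster 18) held 6499 CPM in 74 wild type and 2894 CPM in 89 knockout cells, with a median mitochondrial share of 25.8% and 6.32%. Mural-like cells held 3062 CPM in 48 wild type and 2412 CPM in 64 knockout cells. In the knockout library alone, urothelium-like cells held 2238 CPM (83 cells), podocyte-like cells 2656 CPM (30 cells) and parietal-like cells 1960.1 CPM (70 cells). The unnamed cluster 25, with high UMI totals, held 4490 CPM in 20 wild type and 2800 CPM in 194 knockout cells, and the unnamed cluster 11, with low totals, 4766 CPM in 20 and 2866 CPM in 518. None of these groups was set apart by genotype before counting, and no explanation was tested.

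Kap, an androgen-dependent proximal tubule gene chosen after its values were seen, held 24582 and 1198 CPM in proximal tubule-like cells, a wider gap than any member but Acsm3. It is a late gene in wild type (58997 CPM, against 589 in early cells), so this gap also compares segment mixtures. The 24 late knockout cells held 32762 CPM. The other sex-biased genes counted, Slco1a1, Cyp4b1, Cyp2j13 and Slc22a30, were also called lower over all proximal tubule cells. In wild type they too were higher in late than in early cells. A reason for these gaps was not tested. Y-linked genes were counted in both libraries, with 75.8 and 55.5 CPM of Ddx3y, and Xist with 1 and 2 UMIs.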
